A study of Mus musculus with 12 samples.

Results

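The hippocampal libraries of all mice given Nutlin-3 (Nut3) were compared with those of all mice given vehicle (Veh), taking genotype as a term in the fit. The comparison uses all 12 libraries of the series, 6 Nut3 and 6 Veh, and 22592 of the 55421 genes listed, those whose counts summed to over 20. Each genotype had 3 mice per treatment, giving the groups WT-Nut3 and KO-Nut3 on one side and WT-Veh and KO-Veh on the other. KO mice lack a working *Fmr1* gene, the gene of fragile X syndrome, in all cells from conception. The Nut3 mice were injected intraperitoneally 5 times with 10 mg/kg Nutlin-3, starting at 2 months of age, the Veh mice received the solvent on the same schedule, and all tissue was taken at 6 months of age. Each library is 1 mouse and is named by its group and animal number, such as KO-Nut3 RH6. The values therefore describe a state months after the drug had been stopped, in whole hippocampal tissue that mixes neurons, glia, vessels and any adjoining tissue taken with it.

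Nutlin-3 is a small molecule that occupies the pocket of MDM2 in which p53 binds. MDM2 is a ubiquitin ligase that marks p53, a transcription factor of the DNA damage response, for destruction, and *Mdm2* is itself a p53 target gene, so that the pair forms a feedback loop. Cells exposed to Nutlin-3 are known to accumulate p53 and to transcribe its targets, among them *Cdkn1a*, which encodes the cell cycle inhibitor p21.

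The libraries held between 21772933 and 25498894 reads, of which between 17150820 and 20040482 were counted on genes. Neither depth nor mapping separated the treatments. The median number of reads counted on genes was 18092135 in Nut3 and 18483521 in Veh (exact permutation test within genotypes, two-sided *P* = 0.995, n = 6 per treatment), and 2.55% ± 0.152 of reads were unmapped in Nut3 against 2.57% ± 0.355 in Veh (SD, exact permutation *P* = 0.930). Of 8 such measures none had an adjusted *P*-value under 0.720, where 400 regroupings allow a smallest *P*-value of 0.005 before adjustment. The lowest level that can be told from 0, 3 counts in a library, corresponds to at most 0.179 CPM (counts scaled to library size with TMM factors), and this floor covers counting error only.

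Labels of genotype and tissue were checked first. *Fmr1* stood at 74.0 to 79.5 CPM in the 6 WT libraries and at 28.5 to 37.3 CPM in the 6 KO libraries, without overlap. Between treatments it differed by a log2 fold change of -0.07 ± 0.05 (SE), and the adjusted *P*-value was 0.861. *Rbfox3*, which encodes the neuronal marker NeuN, was at 280 ± 24.6 CPM in Nut3 and 293 ± 15.1 in Veh (SD, n = 6), and *Gfap*, an astrocyte filament gene, at 402 ± 45.4 and 385 ± 31.4. *Xist*, which is transcribed from the inactive X chromosome, was at 0.114 to 0.859 CPM and the Y-linked *Eif2s3y* at 49.9 to 71.4 CPM in all 12 libraries, so all animals had the expression pattern of males. Over the 6 genes of the sex check list the median log2 difference was 0.07.

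4 libraries, all Nut3, stood apart through genes of the choroid plexus, the epithelium in the ventricles next to the hippocampus that secretes cerebrospinal fluid. *Ttr*, which encodes the thyroid hormone carrier transthyretin, was at 313.5 CPM in KO-Nut3 RH8, 3091 in KO-Nut3 RH6, 4215 in WT-Nut3 RH9 and 4520 in KO-Nut3 RH13, and at 12.9 and 18.2 in WT-Nut3 RH1 and RH14. The 6 Veh libraries ranged from 3.15 to 15.2 CPM, and only WT-Nut3 RH1 lay within that range. All 3 KO-Nut3 libraries were thus high, and 1 of 3 WT-Nut3 libraries. Single libraries also held genes of other tissues. In WT-Veh RH15, 6 genes were at 10 CPM or more and at least 20 times above every other library, and they were *Dcpp1*, *Dcpp2*, *Dcpp3*, *Muc19*, *Mucl2* and *Bpifa2*, several of which encode secreted proteins of salivary glands. *Dcpp2* was at 110.9 CPM there and at most 0.155 in the other 11 libraries, although reads may be shared among the near-identical *Dcpp* copies. In KO-Nut3 RH6 the same rule found 4 genes, *Tfap2b*, *Pax7*, *Shox2* and *Irx2*, transcription factors of the developing and adult midbrain and thalamus. The other 10 libraries had 0 such genes.

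Against this background, none of the 22592 genes passed an adjusted *P*-value of 0.05 with edgeR, so that 0% were called, and the smallest adjusted *P*-value was 0.155. Unadjusted *P*-values under 0.05 were found for 1647 genes (7.29%), of which 1133 were higher in Nut3 (5.02%) and 514 lower (2.28%). The median log2 fold change over all genes was 0.00, and 49.9% of genes were higher in Nut3. The count of calls depended on the tool. DESeq2, with the same terms, called 79 of the 19906 genes to which it gave an adjusted *P*-value, 74 higher (0.372%) and 5 lower (0.0251%), and 19 of the 79 were on the list of 30 choroid plexus genes. limma-voom called 0 genes, with 1618 at an unadjusted *P*-value under 0.05. Without the 4 libraries with high *Ttr*, among them all 3 KO-Nut3 libraries, so that 2 WT-Nut3 and 3 WT-Veh libraries alone carry the treatment effect, edgeR called 0 genes, with 680 under 0.05 unadjusted, and without WT-Nut3 RH14 it called 19 genes, 8 of them choroid plexus genes.

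**Figure D1:**
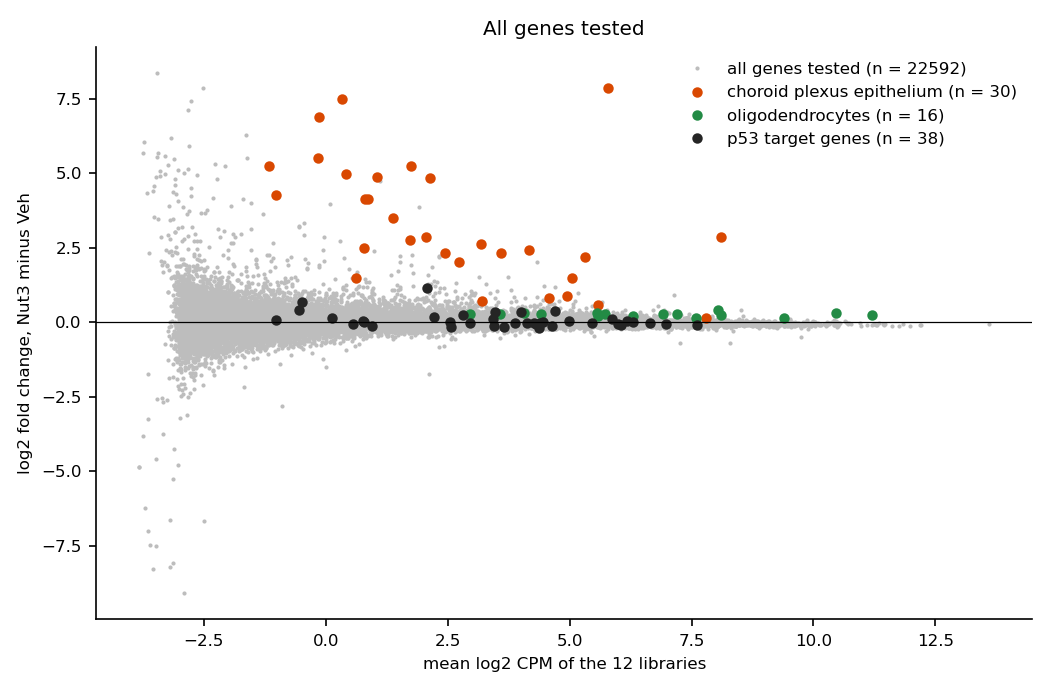
Log2 fold change (Nut3 minus Veh, 6 libraries each, vertical axis) against the mean log2 CPM of the 12 libraries (horizontal axis) for the 22592 genes tested, one point per gene. Choroid plexus genes (orange) reach 7.87 for *Ttr*, oligodendrocyte genes (green) lie just above 0 and p53 target genes (black) scatter around 0.

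The pathway that Nutlin-3 acts on showed no difference between treatments that passed the test. *Mdm2* (chromosome 10, 117688875 to 117710758, minus strand, GRCm38) ranged from 55.2 to 65.6 CPM in Nut3 (median 60.8) and from 52.0 to 62.6 CPM in Veh (median 56.3). These ranges overlap over most of their width, and the log2 fold change was 0.09 ± 0.06 with an adjusted *P*-value of 0.796. *Trp53*, the gene of p53, was at 26.0 ± 1.10 CPM in Nut3 and 24.3 ± 0.927 in Veh, a log2 fold change of 0.10 ± 0.05 (adjusted *P* = 0.698). *Cdkn1a*, named for its role in the pathway and not by the rule for named genes, ranged from 4.62 to 7.54 CPM in Nut3 and from 4.24 to 9.06 in Veh. Its log2 fold change was -0.01 ± 0.19 (adjusted *P* = 0.995). The same held for *Bax*, a pro-apoptotic partner of BCL2, at -0.01 ± 0.09, and for *Ccng1*, which encodes cyclin G1, at 0.05 ± 0.06, both also chosen for their role.

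Of the 38 p53 target genes listed and tested, 18 were higher and 20 lower in Nut3, with a median log2 fold change of -0.01, against 0.00 over all genes. Unadjusted *P*-values were under 0.05 for 5 of them, all higher in Nut3, where the shares over all genes were 5.02% higher and 2.28% lower, and 0 passed after adjustment. *Perp*, a desmosomal membrane protein gene, had the largest difference, with 2.36 to 10.2 CPM in Nut3 and 2.03 to 4.68 in Veh and a log2 fold change of 1.14 ± 0.32 (adjusted *P* = 0.311). Its level followed the choroid plexus genes. With the mean level of the choroid plexus list (its score) as a term in the fit its log2 fold change was 0.00, and without the 4 libraries with high *Ttr* it was -0.24. *Ephx1*, which encodes an epoxide hydrolase, behaved likewise, from 0.39 ± 0.14 to -0.11 once that score was in the fit. *Cdc42bpg*, a kinase gene, had 0.33 ± 0.11 and 0.11 once that score was in the fit. *Phlda3*, an AKT inhibitor gene, kept 0.28 of 0.35 ± 0.15, and *Eda2r*, a death receptor gene, 0.52 of 0.68 ± 0.32, neither passing the test, and both were named after their values were seen. The choroid plexus score was above its Veh range, 1.07 to 1.76, only in the 4 Nut3 libraries with high *Ttr*, among them every KO-Nut3 library. All fits with this score therefore lean on WT-Nut3 RH1 and RH14 for the treatment effect, and barely separate treatment from the score in KO mice. The 27 core regulators of MDM2 and p53, which include ligases, kinases and acetylases that act on p53, had a median of 0.02 with 18 higher in Nut3 and 0 under an unadjusted *P*-value of 0.05 in either direction.

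**Figure D2:**
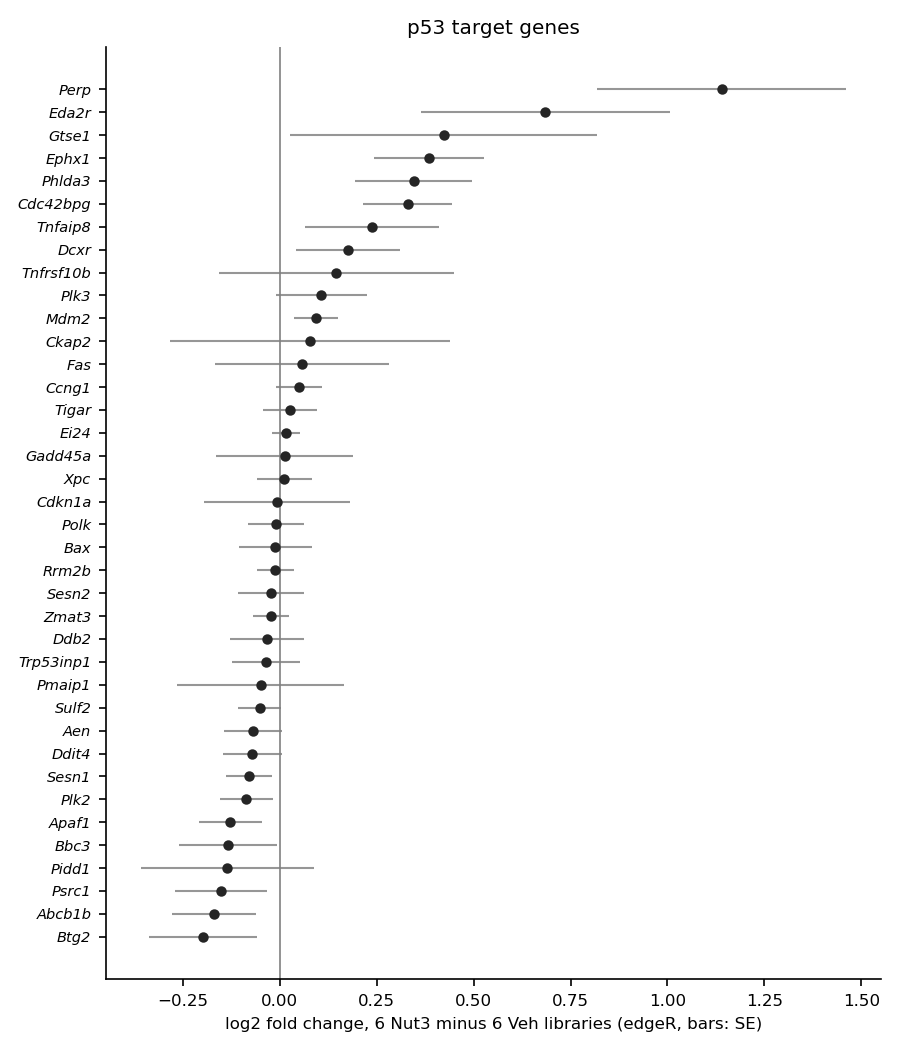
Log2 fold change (Nut3 minus Veh, edgeR fit with genotype, horizontal axis) of the 38 p53 target genes (vertical axis), with bars for 1 SE. Most genes lie within 0.2 of 0, and *Perp* lies farthest to the right at 1.14.

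The promoters of *Mdm2* and *Cdkn1a* are shown because both genes are direct p53 targets and neither differed between treatments. They are the 250 bases before the first start site given by RefSeq for GRCm38.p6, at chr10:117710759-117711008 on the minus strand and chr17:29090729-29090978 on the plus strand, with each match to the p53 half-site consensus in capitals.
Mdm2: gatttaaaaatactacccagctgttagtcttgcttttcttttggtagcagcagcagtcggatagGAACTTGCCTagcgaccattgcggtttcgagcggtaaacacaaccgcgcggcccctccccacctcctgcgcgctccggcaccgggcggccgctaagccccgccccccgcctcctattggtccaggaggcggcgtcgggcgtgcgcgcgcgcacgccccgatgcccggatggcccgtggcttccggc
Cdkn1a: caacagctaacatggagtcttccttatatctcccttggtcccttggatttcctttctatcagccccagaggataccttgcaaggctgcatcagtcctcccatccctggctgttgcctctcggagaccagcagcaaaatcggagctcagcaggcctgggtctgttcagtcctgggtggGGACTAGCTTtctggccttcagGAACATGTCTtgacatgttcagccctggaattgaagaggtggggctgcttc
The *Mdm2* window holds 1 match, which begins 186 bases before the start, and the *Cdkn1a* window holds 2, at 73 and 51 bases before it. Over all genes with such a window, 1941 of 27025 (7.18%) hold a match on either strand. The figure is 9 of 28 (32.1%) for the p53 target genes that have a window here. A match of letters is a description and not evidence of binding, and sequence outside these 250 bases, where further sites may lie, was not searched. None of the 16 genes with a window among those higher in all Nut3 libraries, nor of the 11 among those lower in all, holds one.

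The treatments could also be compared without a model, by asking for which genes every Nut3 library lay above every Veh library. This was so for 34 genes (0.15% of those tested), and for 21 genes (0.093%) every Nut3 library lay below. How many genes would separate in this way by chance was not computed, so these counts do not show an excess. Unadjusted *P*-values were under 0.05 for 34 and 18 of these, which their choice for separation favours, and for 20 and 4 when the fit included the choroid plexus score, where 347 of all genes were higher and 275 lower under 0.05. Among those higher, *Tmem72*, *Folr1* and *Enpp2* had the largest log2 fold changes and belong to the choroid plexus list.  

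*Car2*, a carbonic anhydrase gene that in brain is most active in oligodendrocytes (chromosome 3, 14886273 to 14900770), was at 177 to 214 CPM in Nut3 (median 188) and at 146 to 169 in Veh (median 159). Its log2 fold change was 0.26 ± 0.05 (adjusted *P* = 0.155 with edgeR and 4.76e-04 with DESeq2). The difference was 0.26 ± 0.07 in WT and 0.27 ± 0.07 in KO, although a gene without overlap is higher in both genotypes by that choice. *Cd9*, which encodes a tetraspanin of myelin and other membranes (chromosome 6, 125460266 to 125494791), was at 25.1 to 33.1 CPM in Nut3 and 17.3 to 24.95 in Veh, a log2 fold change of 0.40 ± 0.07 (adjusted *P* = 0.155). *Fgfr2*, a fibroblast growth factor receptor gene expressed in glia, was at 57.0 to 68.2 CPM in Nut3 and 44.1 to 55.3 in Veh, a log2 fold change of 0.32 ± 0.06 (adjusted *P* = 0.155).

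*Dock5*, an exchange factor gene for the small GTPase RAC1, was at 17.4 to 24.96 CPM in Nut3 and 11.5 to 16.2 in Veh, with a log2 fold change of 0.55 ± 0.10 (adjusted *P* = 0.155). *Chdh*, the choline dehydrogenase gene, was at 8.82 to 11.8 CPM and 5.37 to 8.46, with 0.68 ± 0.13 (adjusted *P* = 0.155). It passed the test, together with *Gsn*, when WT-Veh RH5 was left out. The gene with the smallest *P*-value of all was *AC122117.2*, an uncharacterised processed transcript, at 7.16 to 11.7 CPM in Nut3 and 4.65 to 6.199 in Veh, with 0.81 ± 0.13 (adjusted *P* = 0.155). DESeq2 gave adjusted *P*-values of 6.2e-04 for *Cd9*, 7.6e-04 for *Fgfr2*, 2.4e-04 for *Dock5*, 4.7e-04 for *Chdh* and 2.8e-05 for *AC122117.2*. Several other genes without overlap were named after their values were seen. *Neat1*, the long noncoding RNA that builds paraspeckles, was at 115 to 175 and 94.6 to 114 CPM (0.42 ± 0.08, adjusted *P* = 0.167 with edgeR and 0.0018 with DESeq2). *AC122117.2* and *Neat1* passed the edgeR test without WT-Nut3 RH14. *Ddr1*, a collagen receptor gene of oligodendrocytes and epithelia, was at 93.0 to 111 and 73.3 to 90.4 CPM (0.24 ± 0.05), and *Cpm*, the carboxypeptidase M gene, at 15.4 to 17.2 and 10.3 to 15.2 CPM (0.32 ± 0.08). *Sec14l4*, a lipid-binding protein gene named by the rule, had 0.98 ± 0.29 (adjusted *P* = 0.340).

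**Figure D3:**
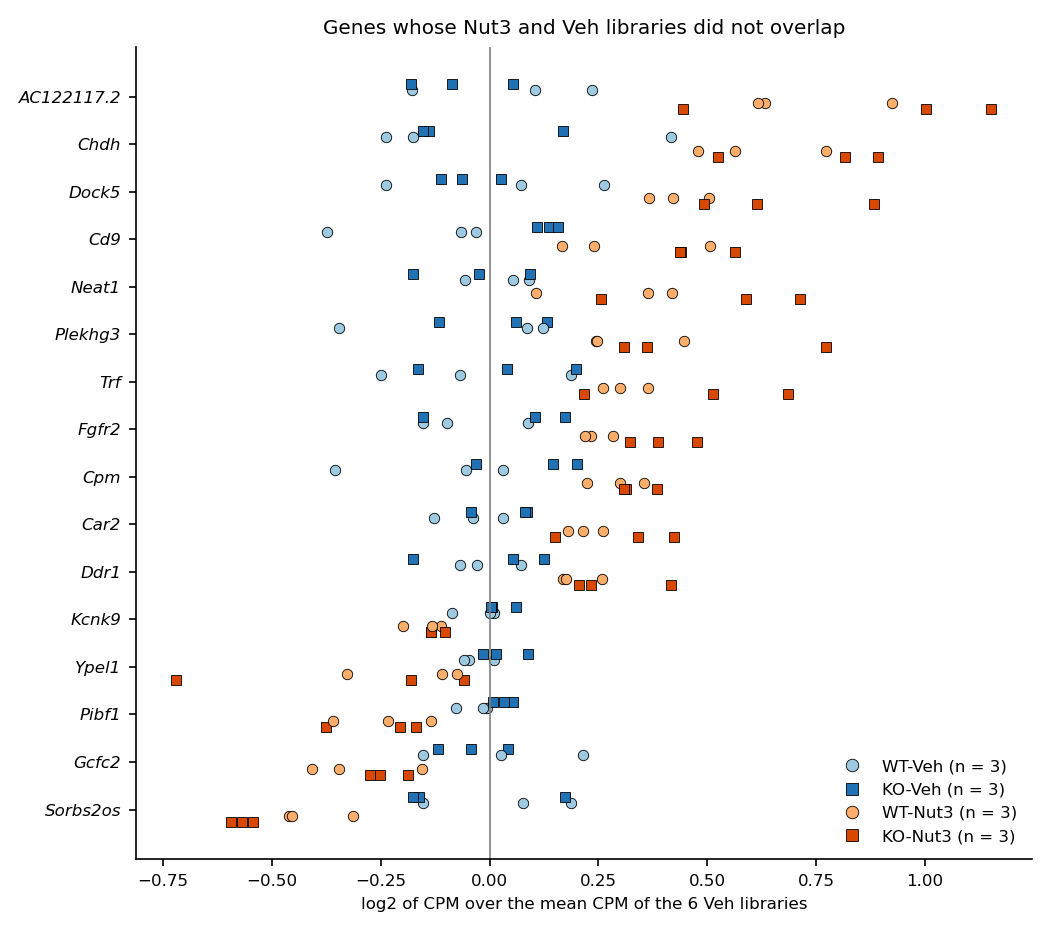
Log2 of the CPM in each library over the mean CPM of the 6 Veh libraries (horizontal axis) for 16 genes whose Nut3 and Veh libraries did not overlap (vertical axis), one point per library and 3 libraries per group. In the 11 upper genes all 6 Nut3 points lie to the right of all 6 Veh points, and in the 5 lower genes to the left, with WT and KO points mixed.

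Genes that were lower in Nut3 differed less. *Kcnk9*, the gene of the potassium leak channel TASK-3 (chromosome 15, 72501089 to 72546340), was at 136 to 145 CPM in Nut3 and 147 to 163 in Veh, a log2 fold change of -0.13 ± 0.03 (adjusted *P* = 0.252 with edgeR, 0.0375 with DESeq2). *Gcfc2*, *Pibf1* and *Ypel1* had -0.27 ± 0.08, -0.24 ± 0.08 and -0.23 ± 0.09. *Sorbs2os*, a noncoding RNA antisense to *Sorbs2*, was at 3.72 to 4.51 and 4.96 to 6.39 CPM, with -0.49 ± 0.11 (adjusted *P* = 0.229), but the counts did not use strand, so reads of *Sorbs2* cannot be told apart from it. *Dio3*, whose enzyme inactivates thyroid hormone, was at 4.87 to 6.16 CPM in 5 Nut3 libraries, 0.444 in KO-Nut3 RH6 and 6.51 to 9.29 in Veh. Its log2 fold change of -0.81 ± 0.33 (adjusted *P* = 0.604) was -0.55 without KO-Nut3 RH6. *Dlk1*, an imprinted gene of the NOTCH ligand family that lies near *Dio3* on chromosome 12, had the smallest *P*-value of the lower genes, at 11.5 to 13.96 CPM in Nut3 and 13.8 to 18.9 in Veh (-0.42 ± 0.09, adjusted *P* = 0.188). *Negr1*, a neuronal adhesion gene, and *Arhgap33*, a RAC regulator gene, had -0.14 ± 0.03 and -0.23 ± 0.05, and overlapped. *Dcpp2*, *Dcpp1* and *Muc19* also ranked among the 10 smallest *P*-values of lower genes, with log2 fold changes of -9.10, -8.21 and -8.07. Without WT-Veh RH15 those of *Dcpp2* and *Muc19* were -0.02 and -1.26.

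Oligodendrocytes form the myelin sheaths of axons, and 16 of their mature marker genes were examined. All 16 had a higher fitted level in Nut3, with a median log2 fold change of 0.27 against 0.00 for all genes. Of these, 11 had an unadjusted *P*-value under 0.05, beside 5.02% higher over all genes, and 0 passed after adjustment with edgeR. DESeq2 called 1 of them higher, *Trf*, beside 0.372% of the genes to which it gave an adjusted *P*-value. In these bulk libraries more cells of a type and more RNA per cell cannot be told apart. *Trf*, the gene of the iron carrier transferrin, which in brain is made mainly by oligodendrocytes and choroid plexus, was at 268 to 370 CPM in Nut3 and 194 to 264 in Veh, without overlap (0.40 ± 0.08, adjusted *P* = 0.188 with edgeR and 0.00516 with DESeq2). *Mbp*, the myelin basic protein gene, had the highest CPM of the list, at 2089 to 2874 and 1798 to 2514, with overlap (0.23 ± 0.09). *Aspa*, the aspartoacylase gene, had 0.32 ± 0.09, and *Mobp* and *Mal*, further myelin genes named after their values were seen, had 0.15 ± 0.14 and 0.14 ± 0.12.

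The oligodendrocyte score, the mean log2 CPM of the 16 genes, was 6.91 in both WT-Nut3 RH1 and RH14, 6.56 in WT-Nut3 RH9 and 6.75, 6.79 and 7.02 in KO-Nut3 RH13, RH8 and RH6. In Veh it ranged from 6.26 in WT-Veh RH2 to 6.76 in WT-Veh RH15. The Nut3 and Veh scores thus overlapped, and WT-Nut3 RH9, which had high *Ttr*, was lowest of the Nut3 libraries. When the fit included the choroid plexus score, the median log2 fold change was 0.35. In that fit 12 of 16 genes were higher under 0.05 unadjusted, beside 347 of the 22592 genes tested. Without the 4 libraries with high *Ttr* the median was 0.38. Without KO-Nut3 RH6 and WT-Veh RH15 it was 0.28, with 14 of 16 genes higher under 0.05, beside 975 of all genes tested. The median was 0.29 in WT and 0.23 in KO mice. It was uneven over the animal numbers, 0.38 in the 6 libraries up to RH8 and 0.06 in the 6 from RH9, and these sets also differed in the share of reads that mapped to several places, 3.07% to 3.22% against 3.33% to 3.55%. With this division as a term in the fit, the median log2 fold change of oligodendrocytes was 0.27. Each set holds 3 Nut3 libraries among its 6, so such a term can hardly change that median and does not address the unevenness. Oligodendrocyte precursor genes, 10 in number, had a median of -0.01, with 1 gene higher and 0 lower at an unadjusted *P*-value under 0.05. Over all genes the shares were 5.02% higher and 2.28% lower.

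**Figure D4:**
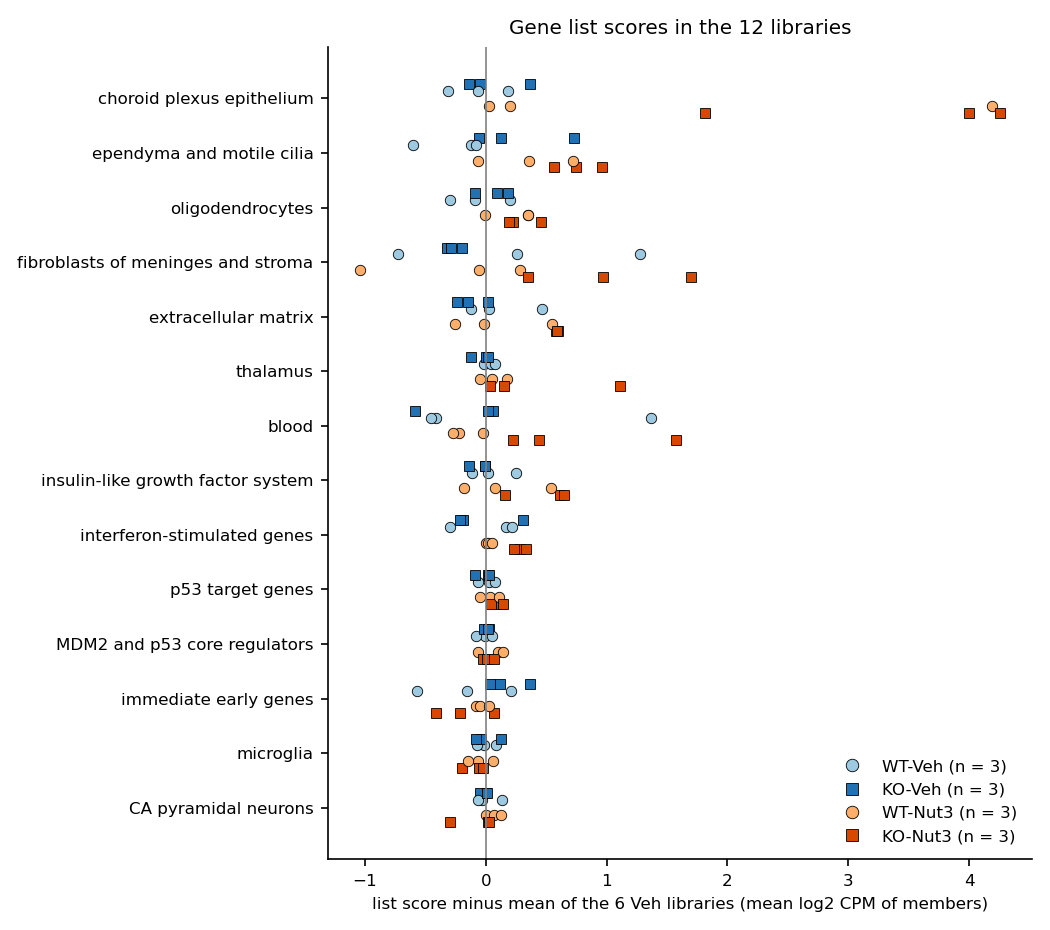
Score of 14 gene lists in each library, as the mean log2 CPM of the members minus the mean of the 6 Veh libraries (horizontal axis), one point per library and 3 libraries per group. Choroid plexus scores of 4 Nut3 libraries lie 1.8 or more above the Veh mean and those of the other 2 lie among the Veh libraries, while 5 of 6 oligodendrocyte scores in Nut3 lie to the right of 0 and the 6th at 0. Oligodendrocyte scores of KO-Veh RH7, WT-Veh RH15 and KO-Veh RH16 also lie to the right of 0, at 0.09, 0.20 and 0.19.

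Of the 29 gene lists, that of the choroid plexus had the largest median difference. All 30 listed genes were higher in Nut3, with a median log2 fold change of 2.81. Unadjusted *P*-values were under 0.05 for 29 of them, beside 5.02% higher over all genes, and 0 passed after adjustment with edgeR. DESeq2 called 19 of the 30 higher, beside 0.372% of the genes to which it gave an adjusted *P*-value. The summed level of the 30 genes was 1101, 5944, 7595 and 8086 CPM in KO-Nut3 RH8, KO-Nut3 RH6, WT-Nut3 RH9 and KO-Nut3 RH13. It was 564 CPM in both other Nut3 libraries, RH1 and RH14, and 491 to 568 in Veh. *Ttr* had the highest CPM of the list, and *Steap1*, a metalloreductase gene, was at or below 3 counts in every Veh library and at least 21.0-fold higher in the mean of Nut3. *Tmem72* was at 0.355 to 67.5 CPM in Nut3 and 0.113 to 0.258 in Veh (7.50 ± 1.39, adjusted *P* = 0.155 with edgeR and 2.09e-07 with DESeq2). *Folr1*, the folate receptor of the blood-cerebrospinal fluid barrier, was at 1.22 to 35.6 and 0.179 to 0.677 CPM (4.87 ± 0.88, adjusted *P* = 0.155). *Enpp2*, which encodes autotaxin, an enzyme of choroid plexus and oligodendrocytes, was at 157.1 to 1945 and 113 to 157.0 CPM (2.85 ± 0.57, adjusted *P* = 0.167), and *Aqp1*, the water channel gene of this epithelium, had 4.99 ± 1.02 (adjusted *P* = 0.171).

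For the choroid plexus list the median log2 fold change was 2.49 in WT and 3.16 in KO mice, and was 0.04 without the 4 libraries with high *Ttr*, where 17 of 30 genes were higher. In the 2 WT-Nut3 libraries that remained, *Tmem72* was at 0.355 and 0.393 CPM, and *Folr1* at 1.22 and 1.23. The levels of *Tmem72* there were close to the floor of 3 counts. Choroid plexus genes moved with several of the results given here, and their part in those was not tested beyond the fits with their score as a term and without the 4 libraries. Since the score was high in Nut3 libraries alone, neither kind of fit separates it well from treatment in KO mice.

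Genes of tissues next to the choroid plexus followed its genes only in part. The ependyma score was 2.23 to 2.63 in the 4 libraries with high *Ttr*, but 2.40 in KO-Veh RH16. Of 25 genes of ependyma and motile cilia, the ciliated lining of the ventricles, 22 were higher in Nut3 and 16 of these had an unadjusted *P*-value under 0.05 (5.02% over all genes), with a median of 0.63. *Foxj1*, the master regulator of motile cilia, was at 10.2 to 26.8 CPM in Nut3 and 8.24 to 20.7 in Veh (0.70 ± 0.19, adjusted *P* = 0.306), *Rarres2* had 0.73 ± 0.17 and *Ak7* 0.72 ± 0.19. When the fit included the choroid plexus score, the median of the list was 0.17 with 2 genes higher under 0.05, and without the 4 libraries with high *Ttr* it was 0.39, with 23 of 25 genes higher and 1 under 0.05. Of 26 genes of meningeal and stromal fibroblasts, 23 were higher and 2 under 0.05, with a median of 0.33, and their summed level was highest in KO-Nut3 RH8 (2244 CPM), WT-Veh RH5 (1464) and KO-Nut3 RH6 (1146), against 311 to 604 in the other 9 libraries. The median was 0.11 once the choroid plexus score was in the fit. Without the 4 libraries with high *Ttr*, where WT mice alone are compared and WT-Veh RH5 is a control, 0 of 26 were higher, with a median of -1.02.

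Growth factor and matrix genes that the study names were among these. *Igf2*, an insulin-like growth factor gene of meninges and choroid plexus, was at 3.83 to 5.84 CPM in the 4 libraries with high *Ttr* and at 0.280 and 1.01 in the other 2 Nut3 libraries. It was at 0.299 to 3.26 in Veh, where WT-Veh RH5 was highest (1.48 ± 0.61, adjusted *P* = 0.619). *Bmp6*, a bone morphogenetic protein gene, had 1.04 ± 0.36 (adjusted *P* = 0.480), *Angptl2* 1.59 ± 0.45 (adjusted *P* = 0.310), *Col8a1* 3.50 ± 0.82 (adjusted *P* = 0.235) and *Timp3* 0.20 ± 0.14 (adjusted *P* = 0.835). The study named these 5 genes from KO mice alone, a different comparison, in which every KO-Nut3 library had high *Ttr*. Means in KO-Nut3 and KO-Veh were 5.19 and 0.760 CPM for *Igf2* and 24.9 and 6.52 for *Bmp6*. They were 11.5 and 2.45 for *Angptl2* and 18.8 and 0.804 for *Col8a1*. In WT mice without WT-Nut3 RH9, which is what the fit without the 4 libraries with high *Ttr* compares, and with WT-Veh RH5 among the controls, all 5 of these genes had negative log2 fold changes, -1.14, -0.50, -0.43, -0.91 and -0.28. Of 51 extracellular matrix genes, 38 were higher, with 15 higher and 1 lower under 0.05 unadjusted and a median of 0.23, which was -0.04 once the choroid plexus score was in the fit. Among them *Col9a3* had 2.02 ± 0.47, and *Col6a1*, named after its value was seen, had -0.45 ± 0.18. Of 16 genes of the insulin-like growth factor system 4 were higher under 0.05, with *Igfbp2*, a binding protein gene, at 1.49 ± 0.40, and of 45 BMP and TGF-beta signaling genes 5 were higher and 1 lower, beside 5.02% higher and 2.28% lower over all genes. Their medians were 0.06 and 0.04, and once the choroid plexus score was in the fit they were -0.02 and 0.00, with 0 genes of either list higher under 0.05.

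Neuronal and other lists differed little. The medians were -0.06 for 20 genes of CA pyramidal neurons, -0.02 for 20 of dentate granule neurons, -0.05 for 19 of interneurons, 0.01 for 14 of cortex and subiculum and -0.06 for 35 receptor genes for GABA and glutamate. In these lists 1, 0, 0, 0 and 0 genes were higher and 1, 0, 1, 0 and 1 lower at an unadjusted *P*-value under 0.05. Over all genes the shares were 5.02% higher and 2.28% lower. The thalamus list of 14 tested genes had a median of 0.21, and its score was 4.73 in KO-Nut3 RH6 and 3.50 to 3.79 in the other 11 libraries. *Slc17a6*, the glutamate transporter gene of thalamic and midbrain neurons, was at 112.9 CPM in KO-Nut3 RH6 and 8.42 to 22.2 in the others, and its log2 fold change of 1.09 was -0.04 without that library. Immediate early genes, which neurons transcribe within minutes of activity, were lower in 26 of 28 cases with a median of -0.13, and 0 had an unadjusted *P*-value under 0.05. Their median was 0.06 in WT and -0.31 in KO mice and was -0.02 once the choroid plexus score was in the fit. It was -0.03 with 11 of 28 higher without KO-Nut3 RH6 and WT-Veh RH15, and 0.04 with 21 of 28 higher without the 4 libraries with high *Ttr*, in WT mice alone. In the libraries up to RH8 it was 0.07, and from RH9 -0.40. *Arc*, a regulator of synaptic receptors, was at 123 to 187 CPM in Nut3 and 91.7 to 270 in Veh.

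Of 30 genes of adult neurogenesis and proliferation, a process of the dentate gyrus, 1 was higher and 2 lower under 0.05 unadjusted, with a median of -0.06. Over all genes the shares were 5.02% higher and 2.28% lower. *Mcm2*, a replication licensing gene, was at 4.54 to 5.49 CPM in Nut3 and 5.07 to 6.57 in Veh (-0.23 ± 0.10, adjusted *P* = 0.658). *Nes*, which encodes the stem cell filament nestin, had 0.19 ± 0.13 (adjusted *P* = 0.820), *Ccnd1*, which encodes cyclin D1, -0.26 ± 0.10 and *Lpar1*, a lysophosphatidic acid receptor gene, 0.28 ± 0.10. Of 26 genes of histone acetylation 1 was higher and 1 lower at the same threshold, with a median of -0.01. *Hdac1*, a deacetylase gene, had 0.03 ± 0.05 (adjusted *P* = 0.940) and *Ep300*, the acetyltransferase gene, 0.01 ± 0.04 (adjusted *P* = 0.972).

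Microglial genes, those of the resident macrophages, were lower in 13 of 16 cases with a median of -0.08, but in 8 of 16 once the choroid plexus score was in the fit (median -0.01), and 7 of 16 were higher without KO-Nut3 RH6 and WT-Veh RH15 (median -0.02). *Fcrls* was at 17.2 to 19.8 CPM in Nut3 and 19.2 to 24.5 in Veh (-0.24 ± 0.07, adjusted *P* = 0.340), and *C1qb*, a complement gene, had -0.14 ± 0.06. Astrocyte genes had a median of -0.03 over 15 genes, with the glutamate transporter genes *Slc1a2* and *Slc1a3* at -0.13 ± 0.05 and -0.19 ± 0.08. Of 30 interferon-stimulated genes 24 were higher, 5 of them under 0.05 (5.02% over all genes), with a median of 0.12, which was 0.13 with 19 of 30 higher and 0 under 0.05 once the choroid plexus score was in the fit, and -0.03 without the 4 libraries with high *Ttr*, in WT mice alone. *B2m*, the light chain gene of MHC class I, had 0.17 ± 0.05 and *Ifi27* 0.30 ± 0.10. The medians were 0.05 for 18 endothelial, 0.19 for 14 mural and 0.23 for 10 blood genes, 0.04 for 26 heat shock and unfolded protein response genes, -0.03 for 13 mitochondrially encoded genes and -0.01 for 21 circadian clock genes. Higher and lower genes under 0.05 numbered 2 and 0, 1 and 0, 1 and 0, 2 and 0, 0 and 0, and 0 and 1 in these 6 lists. Over all genes the shares were 5.02% higher and 2.28% lower. Without the 4 libraries with high *Ttr* the medians of endothelial, mural and blood genes, in WT mice alone, were -0.09, -0.03 and -0.48.

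The fit assumes 1 effect of treatment for both genotypes, and the interaction of genotype and treatment tests that assumption. By edgeR 0 genes (0%) passed an adjusted *P*-value of 0.05 and 942 (4.17%) had an unadjusted *P*-value under 0.05, and by DESeq2 1 gene passed. It was *Gm21887*, which the study also calls *Erdr1*. The annotation places it near the end of the X chromosome, in the region shared with the Y chromosome, where reads can be split among copies, so its values are uncertain. It was at 0.0507, 28.9 and 18.4 CPM in WT-Nut3 RH1, RH9 and RH14, 0 to 0.210 in WT-Veh, 0 to 0.333 in KO-Nut3 and 9.96 to 13.8 in KO-Veh. The difference between genotypes was -13.29 on the log2 scale (edgeR, adjusted *P* = 0.126), while the effect over both genotypes was 0.29 ± 1.92. WT and KO comparisons share no library, so their values can be set side by side. Fibroblast genes had opposite medians, -0.50 in WT and 1.38 in KO mice, blood genes -0.53 and 0.76 and extracellular matrix genes -0.08 and 0.59, in which WT-Veh RH5 and WT-Veh RH15 were the highest Veh libraries for fibroblast and blood genes. Oligodendrocyte and choroid plexus genes had medians of the same sign in both genotypes, but for the choroid plexus the WT median rested on WT-Nut3 RH9 and was 0.04 without it.

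**Figure D5:**
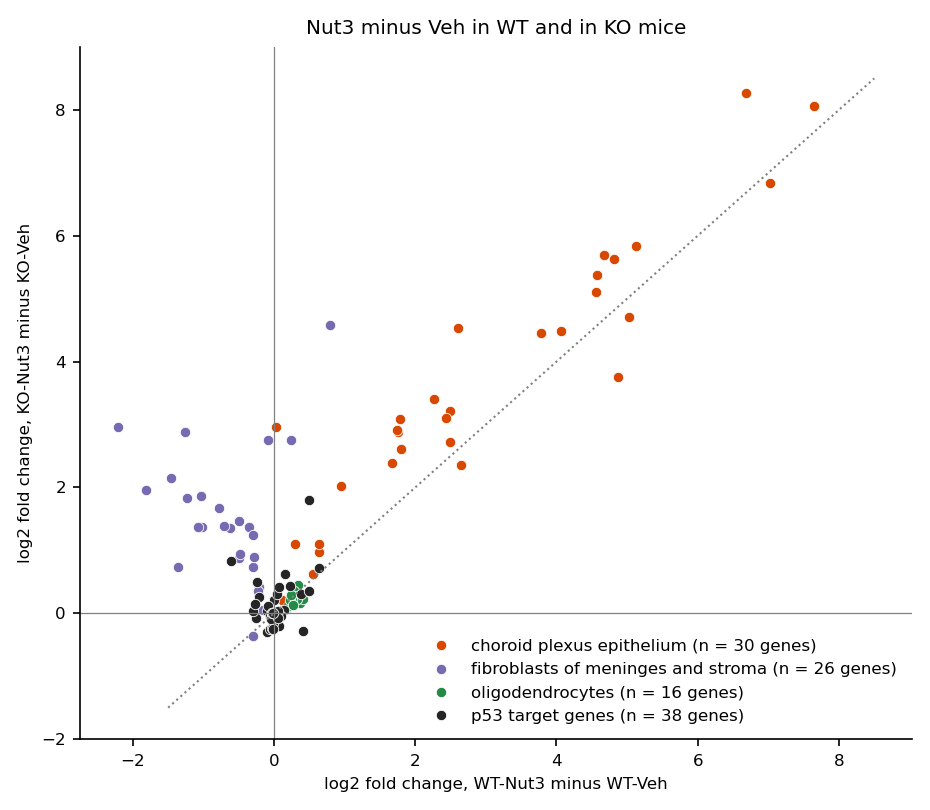
Log2 fold change of Nut3 minus Veh in WT mice (horizontal axis) and in KO mice (vertical axis) for the genes of 4 lists, one point per gene, with the dotted line marking equal values. Choroid plexus genes lie along the line up to 8.06 for *Ttr* in KO, oligodendrocyte genes lie close to it just above 0, and most fibroblast genes are negative in WT and positive in KO.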

How the data were processed

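Poly(A) RNA from the hippocampus of 12 mice was sequenced. Whether reads were single, as in the labels, or paired, as in the study's methods, could not be told from the counts. Mapping to mm10 was done by the authors with STAR, whose version is not given in the sources used here, and the authors deposited counts of reads per gene without normalization. The unstranded column was used, since one strand held 50.1% to 50.4% of the stranded counts. A further table, with 12 columns of the whole series, was left out because its column names do not identify samples. Gene symbols were found for 55154 of 55421 identifiers, and coordinates are those of GENCODE vM21 (GRCm38).

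Counts were scaled with TMM factors and tested two-sided by quasi-likelihood in edgeR 4.0.16 (R 4.3.3), with genotype and treatment as terms, with *P*-values adjusted by Benjamini and Hochberg over 22592 genes and a threshold of 0.05. The SE is the log2 fold change divided by the square root of *F*. Log2 levels have a prior count of 1. Values within a genotype come from a fit of all 4 groups. P-values measure the spread between mice. Replicates were checked for identity, and every pair of one group differed by 5.93 times or more the sampling noise (chi-square per degree of freedom).

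The comparison, the 29 gene lists and the tests were chosen with earlier results of these data known. Genes named are those that the study names, the 10 per direction with the smallest *P*-values and up to 5 per direction with the largest change among genes without overlap (both at a mean of 1 CPM or more), and in each list the 3 with the smallest *P*-values and the one with the highest level. Members described beyond these were chosen after their values were seen. Alternatives were DESeq2 1.42.0, limma-voom (limma 3.58.1), DESeq2 size factors, other filters, robust dispersion, other model terms and each library left out. Chosen after seeing the data were the fit without the 4 libraries above 100 CPM of *Ttr*, in which no KO-Nut3 library is left and the effect is that in WT alone, and the fit without KO-Nut3 RH6 and WT-Veh RH15.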

Additional observations from a re-analysis of the deposited data

Results flagged for a closer look

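In 14 cases the highest or lowest of the 6 libraries of a treatment lay farther from the others than the 95% critical value of Dixon's test, among the 158 sets tested, and chance gives about 1 in 20. WT-Veh RH15 was high for the blood score, at 1.42 against -0.54 to 0.11 in the other Veh libraries. It was also high for *Dcpp2*, *Muc19* and *Dcpp1*, at log2 CPM of 6.79, 4.68 and 4.82. *Muc19* in KO-Nut3 RH13, at -3.20, and *Dcpp1* in KO-Nut3 RH8, at -3.16, stood above Nut3 libraries that had no reads. KO-Nut3 RH6 was high for the thalamus score, at 4.73 against 3.58 to 3.79, low for the score of CA pyramidal neurons, at 5.48 against 5.78 to 5.90, and low for *Dio3*, at a log2 CPM of -1.01. WT-Nut3 RH14 was low for the sex check score, at 2.66, and for *Kcnk9*, at 7.09. *Nes* was high in KO-Nut3 RH8, at 4.25, *Bmp6* was high in WT-Veh RH5, at 4.20, and *Folr1* was low in WT-Veh RH2, at -2.10. Their causes were not tested.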

How the results depend on the processing

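The count of 0 genes held with limma-voom, DESeq2 size factors, filterByExpr, robust dispersion, no genotype term, the average effect over genotypes, a fit that included the choroid plexus score, and both fits chosen after seeing the data. It was 79 with DESeq2, 539 when all genes with at least 1 count were fitted (prior degrees of freedom 113 against 6.02), 3 with the division of animal numbers as a term (*Muc19*, *Dcpp1* and *Dcpp2*) and 1 with choroid plexus and fibroblast scores as terms (*Bpifa2*). Leaving out 1 library gave 0 to 19, with 19 without WT-Nut3 RH14, 2 without WT-Veh RH5 and 0 otherwise. Genes without overlap, higher and lower, numbered 46 to 116 and 37 to 60 with 1 library left out, 666 and 629 without the 4 libraries with high *Ttr* (no KO-Nut3 library is left), and 85 and 77 without KO-Nut3 RH6 and WT-Veh RH15, where fewer libraries have to be separated. With filterByExpr 12 were lower. The interaction count of 0 was 1 with DESeq2, 291 when all genes with at least 1 count were fitted, and 0 to 1 with 1 library left out, where WT-Nut3 RH1 gave the 1. The cause of the other changes was not tested. No paired analysis was possible because no animal number occurs in more than 1 group. With 6 libraries a treatment, of which 4 differ in choroid plexus genes, and levels under 0.179 CPM not told from 0, small differences may not have been detectable.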
